A study of Mus musculus with 10 samples.

Results

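PROMPTs (promoter upstream transcripts) are short-lived RNAs made just upstream of gene start sites, most of them antisense to the gene. The regions described here lie upstream of genes for small RNAs: the 1000 of 30166 PROMPT regions whose downstream gene has the GENCODE biotype snRNA (388 regions), snoRNA (455), miRNA (127), misc_RNA (20) or scaRNA (10). They were chosen by biotype alone, with no measured value. Each region spans the 3000 bases before a gene's start and overlaps no gene of the authors' annotation, and the counts are reads antisense to that gene. They come from RNA sequencing of testes from mice at postnatal day 4, 5 libraries of Dis3 conditional knockout (Dis3 cKO) animals and 5 of control animals, each library made from both testes of 1 mouse. Dis3 cKO males carried a null and a floxed Dis3 allele with Ddx4-Cre, a transgene that drives recombination in germ cells and leaves the floxed allele intact in the somatic cells of the testis. The controls were labelled Dis3 WT. According to the paper, the floxed line was made in zygotes of B6D2F1 mice, and the paper names no strain for the sequenced animals. In whole testis, fewer germ cells and less RNA per germ cell cannot be told apart.

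DIS3 is the processive 3′ to 5′ exonuclease of the nuclear RNA exosome, the complex that degrades PROMPTs, enhancer RNAs and other unstable nuclear transcripts and that trims the 3′ ends of several stable small RNAs. Many start sites of active genes fire in both directions, and the transcript that runs away from the gene is usually ended early and handed to the exosome. Small RNA genes differ in how they are transcribed: most spliceosomal snRNAs are made by RNA polymerase II from their own promoters, Y RNAs (misc_RNA here) by RNA polymerase III, and many snoRNAs, scaRNAs and miRNAs are cut out of host transcripts and have no promoter at their own 5′ end. The annotation also holds many copies and fragments of small RNA genes, and 865 of the 1000 members have no name beyond a Gm number or an identifier.

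The small RNAs whose upstream regions carry the results below are printed here, 5′ to 3′. For 4 miRNA genes the mature sequences (RefSeq, GRCm38.p6) are shown with the seed, bases 2 to 8, in capitals. No seed was shared between them.
mmu-miR-1945: uCUUCGCGgguacugucgggac
mmu-miR-8092: gCCAUCUGggacucgcaggca
mmu-miR-7671-5p: aGGCUCCGcucuggcuagcuucc
mmu-miR-7671-3p: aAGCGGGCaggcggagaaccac
mmu-miR-6236: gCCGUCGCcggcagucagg

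Of the other named small RNAs, U11 (Rnu11) is the snRNA that recognises the 5′ splice site of minor, U12-type introns, and capitals mark ATTTTTTG, the uridine-rich stretch bound by Sm proteins. Rny1 and Rny3 are Y RNAs, partners of the Ro60 protein, and capitals mark their longest shared run of 12 bases. Snord104 is a box C/D snoRNA, and capitals mark TGATGA and the last CTGA, its C and D boxes. These sequences were taken from the GENCODE transcripts.
Rnu11: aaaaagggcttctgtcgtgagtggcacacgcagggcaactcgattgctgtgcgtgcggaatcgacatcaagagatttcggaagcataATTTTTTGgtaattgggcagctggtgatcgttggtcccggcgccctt
Rny1: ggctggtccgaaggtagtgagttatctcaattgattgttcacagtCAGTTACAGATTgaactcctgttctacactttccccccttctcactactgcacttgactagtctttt
Rny3: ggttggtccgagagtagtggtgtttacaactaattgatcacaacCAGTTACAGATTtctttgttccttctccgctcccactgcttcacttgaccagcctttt
Snord104: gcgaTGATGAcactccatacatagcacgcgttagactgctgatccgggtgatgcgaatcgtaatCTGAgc

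Throughout, means are given ± SD over the 5 libraries of each genotype (n = 5 each). Libraries held between 28538849 and 37739906 gene counts in Dis3 cKO and between 35391042 and 41104912 in control. The targeted gene followed the labels: Dis3 averaged 1494 ± 167 in Dis3 cKO and 4596 ± 491 in control, a log2 fold change of -1.62 in normalized counts. The libraries numbered 4 and 5 in the labels stood apart from those numbered 1 to 3 in both genotypes, with no batch named in the labels. Across genes, deviations from the group mean correlated between 0.0183 and 0.183 for a Dis3 cKO and a control library from the same set of numbers, and between -0.178 and -0.0775 for libraries from different sets. Across regions the ranges were -0.0353 to 0.0391 within a set and -0.0521 to 0.0329 between sets, so that they overlapped. Because of the split across genes, values are also given for libraries 1 to 3 and 4 to 5 alone where they matter. Counts in all 30166 regions together came to 0.643% ± 0.143 of the gene counts in Dis3 cKO and 0.401% ± 0.0854 in control (SD, n = 5 each; two-sided exact permutation test over libraries, p = 0.00794, the smallest that 5 against 5 allow). Library 1 of Dis3 cKO was highest at 0.899%, against 0.559% to 0.598% in the other 4, and without it the exact p was 0.0238. Summed levels of 7 germ cell genes ran between 11378 and 14665 normalized counts in Dis3 cKO and between 14869 and 19873 in control with no overlap. Dazl alone averaged 5266 ± 260 in Dis3 cKO and 8398 ± 1514 in control. Sohlh1, Stra8 and Dazl were lower in the edgeR test. Ddx4 (log2 fold change -0.26), Zbtb16 (-0.23), Kit (-0.078) and Gfra1 (0.068) did not pass it. The part of the difference in germ cell genes in the region values was not tested.

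Antisense RNA upstream of small RNA genes made up a smaller share of all region counts in Dis3 cKO testes, but this rested on the Mir6236 region. The members held 2.74%, 2.50%, 2.60%, 3.02% and 2.70% of region counts in the Dis3 cKO libraries, against 5.28%, 5.32%, 4.24%, 3.58% and 3.25% in the control libraries (2.71 ± 0.196 and 4.33 ± 0.953, SD, n = 5 each). The groups did not overlap (exact permutation p = 0.00794), and within control the share was lower in libraries 4 and 5. Without the Mir6236 region, a setting chosen after its values were seen, the shares were 2.29%, 1.65%, 1.69%, 2.32% and 2.23% in the Dis3 cKO libraries, against 2.80%, 2.68%, 2.65%, 2.22% and 2.06% in the control libraries, which overlapped (2.04 ± 0.335 and 2.48 ± 0.320, exact permutation p = 0.0794). Regions upstream of protein-coding genes, which hold most of the region counts, summed to between 144139 and 218850 normalized counts in Dis3 cKO and between 73718 and 100315 in control. A normalized count is the count divided by the library's size, taken from the gene counts and set relative to the mean library. Summed over the 1000 members, normalized counts were 8677, 5152, 5209, 6394 and 5608 in the Dis3 cKO libraries, against 8663, 8682, 5638, 3984 and 3499 in the control libraries. These sums overlapped, with a log2 fold change, Dis3 cKO over control, of 0.10 (SE 0.31, exact permutation p = 0.802), which became -0.20 with library sizes taken from processed pseudogene regions and 0.53 (SE 0.35, exact permutation p = 0.159) without the highest region of each class.

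Most members were low. The median member averaged 2.69 normalized counts per library in Dis3 cKO and 2.02 in control, near the 2.39 and 1.76 of regions upstream of processed pseudogenes, retrotransposed gene copies that mostly lack a promoter of their own, and below the 4.15 and 2.75 of regions upstream of protein-coding genes. Only 31 members averaged 10 or more, 3 of them 100 or more (the regions upstream of Mir6236, Rny3 and Mir1945), and 8 had no read in any library. A mean of 3 counts over the 10 libraries, required for a test, left 351 members (35.1%). These were 134 snRNA, 153 snoRNA, 52 miRNA, 9 misc_RNA and 3 scaRNA regions.

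By class, the sums of snRNA and snoRNA regions had higher means in Dis3 cKO but overlapped. Summed normalized counts upstream of the 388 snRNA genes were 2107, 745, 784, 1578 and 1275 in the Dis3 cKO libraries, against 1251, 1222, 891, 596 and 567 in the control libraries. Upstream of the 455 snoRNA genes they were 2482, 887, 796, 1579.6 and 1651 in the Dis3 cKO libraries, against 1581, 1435, 1073, 772 and 685 in the control libraries. In both classes Dis3 cKO library 1 was highest and Dis3 cKO libraries 2 and 3 lay below control libraries 1 to 3. The log2 fold change was 0.49 for snRNA (SE 0.38, exact permutation p = 0.214) and 0.37 for snoRNA (SE 0.39, p = 0.365), each with an adjusted p of 0.463 over the 8 sums compared. Libraries 1 to 3 alone gave -0.048 and -0.16, and libraries 4 and 5 alone gave 1.29 and 1.15.

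Per region, both classes stayed close to processed pseudogene regions in every library. An snRNA region averaged 3.35 normalized counts in Dis3 cKO and 2.33 in control, an snoRNA region 3.25 and 2.44, and a processed pseudogene region 3.27 and 2.60. The ratio of an snRNA to a processed pseudogene region was 1.05, 0.87, 1.01, 1.15 and 0.95 in the Dis3 cKO libraries, against 0.95, 0.93, 0.93, 0.80 and 0.81 in the control libraries. The fold change of the snRNA sum exceeded that of the processed pseudogene sum by 0.19 on the log2 scale (SE 0.09, exact permutation p = 0.0635, adjusted p = 0.233 over 22 pairs of sums). For snoRNA the same difference was 0.068 (SE 0.08, exact permutation adjusted p = 0.586), and between snRNA and snoRNA it was 0.12 (SE 0.08, adjusted p = 0.364). None of these 3 differences passed the test. Only that of snoRNA lay within the pooled SD between libraries (0.12), and that of snRNA from processed pseudogene exceeded its pooled SD (0.14). The 10 scaRNA regions, upstream of guides for modification of snRNAs in Cajal bodies, summed to 25.9, 14.2, 19, 34.3 and 35.1 in the Dis3 cKO libraries, against 40.1, 27.3, 11.8, 3.83 and 12.9 in the control libraries, too few counts to compare firmly (log2 fold change 0.72, SE 0.61, exact permutation p = 0.286).

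**Figure D1:**
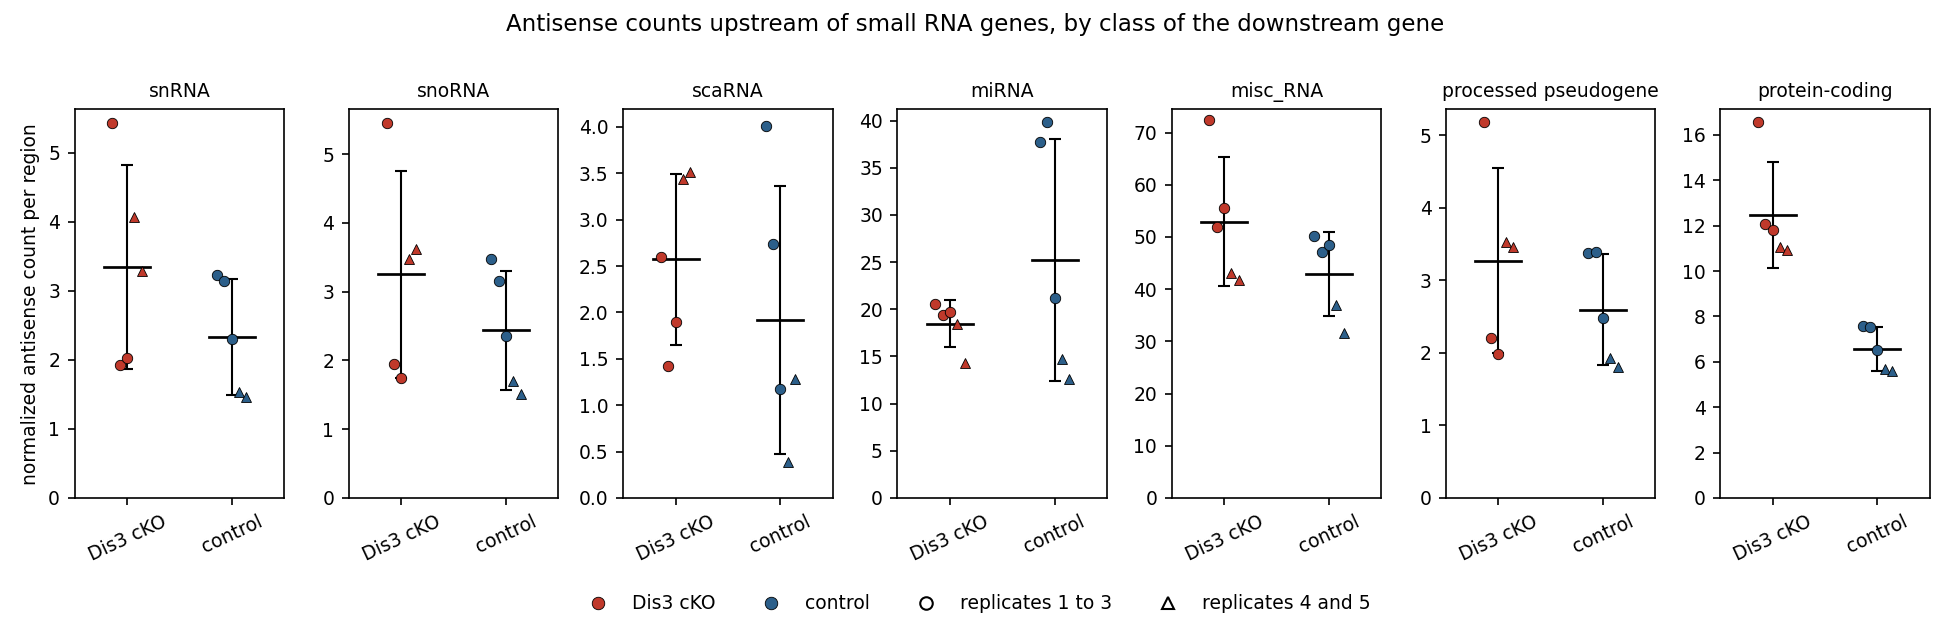
Normalized antisense count per region in each library (y axis, each panel from 0 on its own scale) upstream of snRNA, snoRNA, scaRNA, miRNA and misc_RNA genes, with processed pseudogene and protein-coding genes for comparison, Dis3 cKO left of control; circles are libraries 1 to 3, triangles libraries 4 and 5, lines the mean and bars the SD. Protein-coding regions average 12.5 in Dis3 cKO and 6.58 in control without overlap, while the 5 small RNA classes overlap between genotypes.

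The miRNA and misc_RNA sums each rested on a single region. Upstream of the 127 miRNA genes, normalized counts summed to 2614, 2468, 2499, 2341 and 1811 in the Dis3 cKO libraries, against 4787, 5056, 2694, 1872 and 1602 in the control libraries. Control libraries 1 and 2 were the highest of the 10, and the groups overlapped (log2 fold change -0.30, SE 0.35, exact permutation p = 0.405). The region upstream of Mir6236 alone held 65.2% of these counts in Dis3 cKO and 85.2% in control. Without it, the miRNA sums were 1147, 694, 648, 829.7 and 812 in the Dis3 cKO libraries, against 595, 624, 518, 321 and 300.5 in the control libraries. All 5 Dis3 cKO libraries then lay above all 5 control libraries (826 ± 195 and 472 ± 152, log2 fold change 0.85, SE 0.27, exact permutation p = 0.00794, adjusted p = 0.0212).

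Upstream of the 20 misc_RNA genes, normalized counts summed to 1448, 1038, 1111, 861 and 836 in the Dis3 cKO libraries, against 1005, 943, 968, 741 and 632 in the control libraries, with overlap (log2 fold change 0.30, SE 0.19, exact permutation p = 0.175; -0.0011 with processed pseudogene sizes). The region upstream of Rny3 held 88.0% of these counts in Dis3 cKO and 92.6% in control. Without it the sums were 170.3, 97.8, 92.8, 148 and 130.2 in the Dis3 cKO libraries, against 72.7, 74.5, 65.5, 42.2 and 62.5 in the control libraries. The groups were again apart (128 ± 33.0 and 63.5 ± 12.9, log2 fold change 1.0, SE 0.22, exact permutation p = 0.00794, adjusted p = 0.0212). Leaving out the highest region was tried for every small RNA class, and it brought the miRNA and misc_RNA sums past the threshold of 0.05. Leaving out members near an annotated gene on the counted strand did not. That setting gave 0.79 for miRNA (SE 0.31, exact permutation adjusted p = 0.159) and 0.29 for misc_RNA (SE 0.70, exact permutation adjusted p = 0.746). The sums without the highest region also held the regions called singly below. With those and the Rny3 region left out, as a description, the miRNA log2 fold change was 0.54 (SE 0.33, 122 regions) and that of misc_RNA 0.41 (SE 0.35, 17 regions).

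**Figure D2:**
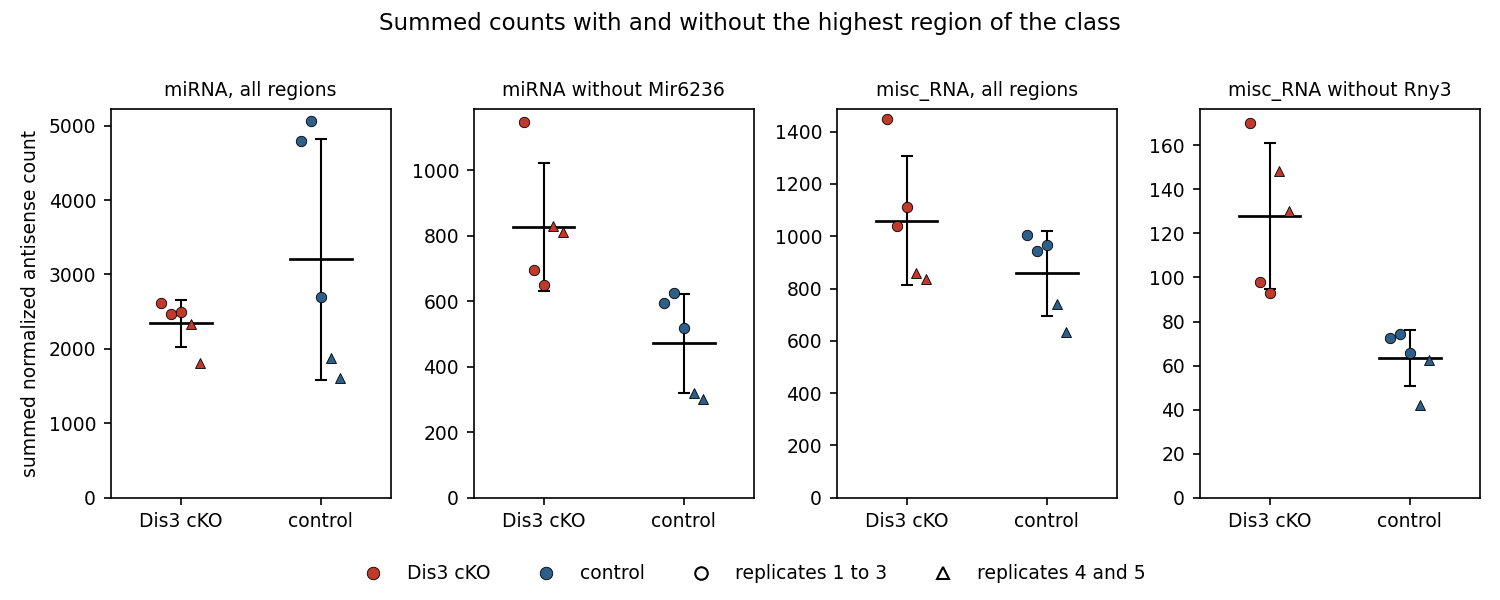
Summed normalized antisense counts per library (y axis from 0) upstream of miRNA genes with and without the Mir6236 region and upstream of misc_RNA genes with and without the Rny3 region, Dis3 cKO left of control; circles are libraries 1 to 3, triangles libraries 4 and 5, lines the mean and bars the SD. With the highest region left out, every Dis3 cKO library is above every control library, 648 or more against 624 or less for miRNA and 92.8 or more against 74.5 or less for misc_RNA.

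With the highest region in place, the sum of each small RNA class had a lower fold change than the protein-coding sum. The protein-coding sum was higher in Dis3 cKO by 0.92 (SE 0.15, exact permutation p = 0.00794, adjusted p = 0.0635, since a lone smallest p cannot pass over 8 sums). The difference of log2 fold changes from protein-coding was -0.82 for all members (SE 0.20), -1.22 for miRNA (SE 0.26) and -0.62 for misc_RNA (SE 0.08), each with an exact permutation p of 0.00794 and an adjusted p of 0.0582 over 22 pairs, just outside the threshold. Without the highest region of each small RNA class, and with the protein-coding sum left whole, these differences were -0.39 for all members (SE 0.26, exact permutation p = 0.206), -0.074 for miRNA (SE 0.16, p = 0.587) and 0.077 for misc_RNA (SE 0.18, p = 0.683). For snRNA and snoRNA the differences were -0.43 and -0.55 in all libraries, against 0.32 and 0.19 in libraries 4 and 5 alone. No difference between 2 small RNA classes passed the adjustment, and the lowest adjusted p among them was 0.175, for miRNA minus misc_RNA (-0.60, exact permutation test).

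Single regions were tested with edgeR over all 12345 PROMPT regions that passed the filter. Of the 351 members tested, 12 were higher in Dis3 cKO (3.42%) and 1 was lower, against a background of 13.6% higher and 0.0486% lower over all tested regions. The share called higher was 20.8% for protein-coding regions (1522 of 7315), 5.45% for lncRNA (79 of 1449) and 0.996% for processed pseudogenes (17 of 1706). Within the members it was 3.73% for snRNA (5 of 134), 0.65% for snoRNA (1 of 153), 7.69% for miRNA (4 of 52), 22.2% for misc_RNA (2 of 9) and 0 of 3 for scaRNA. At an unadjusted edgeR p under 0.05, 24 of the 351 members were higher and 3 lower, against 2597 higher and 35 lower of all 12345 tested regions. None of these members was a scaRNA region, and DESeq2 likewise called no scaRNA region. In 11 members (3.13%) every Dis3 cKO library lay above every control library, against 11.1% of all tested regions. Libraries 4 and 5 alone gave 2 higher calls, library sizes taken from the PROMPT regions gave 5, and without Dis3 cKO library 1 the snRNA calls numbered 3. Calls over all regions are not given for these settings, so the falls cannot be read as particular to the members. Regions just outside the adjusted p of 0.05 were those of Gm24166 (edgeR adjusted p = 0.0743) and Gm22945 (0.0846).

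The median fold change of tested members was above 0, except for scaRNA and with library sizes taken from the PROMPT regions, where it was -0.11 and that over all tested regions 0.10. With gene-based sizes the median log2 fold change of tested members was 0.49, with 0.59 for snRNA, 0.36 for snoRNA, 0.72 for miRNA, 0.24 for misc_RNA and -0.20 for scaRNA. It was 0.64 over all tested regions, 0.83 for protein-coding, 0.47 for lncRNA and 0.34 for processed pseudogene regions. Values above 0 were found for 73.8% of tested members, 77.8% of all tested regions, 83.4% of protein-coding and 67.0% of processed pseudogene regions. The split of the libraries mattered here: the median of tested members was 0.022 in libraries 1 to 3 alone and 1.32 in libraries 4 and 5 alone, beside 0.38 and 1.17 over all tested regions.

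**Figure D3:**
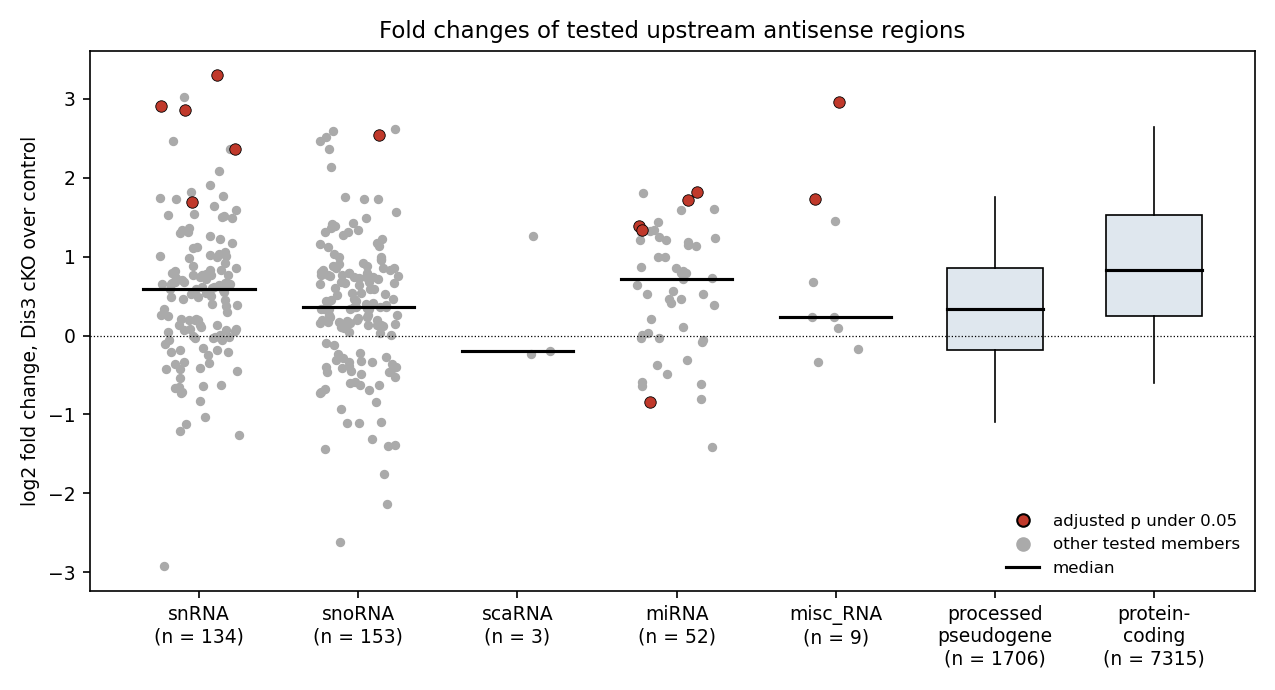
Log2 fold change, Dis3 cKO over control, of the antisense count of each tested region (y axis) by small RNA class, with called regions in red, beside boxes (quartiles, whiskers 5% to 95%) for 1706 processed pseudogene and 7315 protein-coding regions. The medians of snRNA (0.59) and snoRNA regions (0.36) lie between those of processed pseudogene (0.34) and protein-coding regions (0.83), and the 12 regions called higher lie at 1.33 or above.

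Among genes with promoters of their own, antisense RNA upstream of the U11 gene was higher in every Dis3 cKO library. The region upstream of Rnu11 (ENSMUSG00000077323; chr4:132270214-132273213, GRCm38, counted on the plus strand) had normalized counts of 63, 23.7, 44.7, 15.5 and 22.6 in the Dis3 cKO libraries, against 11.2, 6.6, 1.68, 3.83 and 9.19 in the control libraries. Library 1 of Dis3 cKO was highest, and the lowest Dis3 cKO library was above the highest control library. The mean was 33.9 ± 19.6 in Dis3 cKO and 6.5 ± 3.86 in control, and the region rose (log2 fold change 2.36, SE 0.47, edgeR adjusted p = 1.48e-05), by 2.74 in libraries 1 to 3 and 1.53 in libraries 4 and 5. U11 itself also rose: Rnu11 gene counts averaged 953 ± 257 in Dis3 cKO and 622 ± 97.4 in control (log2 fold change 0.62, SE 0.17, edgeR adjusted p = 0.0398), although a control library exceeded the lowest Dis3 cKO library. The annotated lncRNA Gm28872 ends 1 base before the region, and its own gene count was 0 in 8 of the 10 libraries.

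The Y RNA genes lie close together on chromosome 6. Upstream of Rny1 (ENSMUSG00000065701; chr6:47788181-47791180, plus strand) normalized counts were 53.1, 66.5, 44.7, 48.7 and 40.8 in the Dis3 cKO libraries, against 7.46, 33, 8.4, 5.75 and 22.1 in the control libraries. The lowest Dis3 cKO library exceeded the highest control library, and control libraries 2 and 5 were above the other 3. The region rose (50.8 ± 9.9 in Dis3 cKO and 15.3 ± 11.8 in control; log2 fold change 1.72, SE 0.37, edgeR adjusted p = 6.38e-05), and both sets of libraries gave similar values (1.76 and 1.67). Its region begins 6456 bases beyond the Rny3 gene. Upstream of Rny3 (chr6:47778624-47781623, minus strand) counts were far higher, 1278, 940.0, 1019, 712 and 705 in the Dis3 cKO libraries, against 932, 868, 903, 699 and 569.7 in the control libraries, and overlapped (log2 fold change 0.23, SE 0.14, edgeR adjusted p = 0.407). The Rny3 transcript itself had a log2 fold change of 0.058 (edgeR adjusted p = 0.956).

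Of 455 snoRNA regions, only that of Snord104 (ENSMUSG00000065126; chr11:106497993-106500992, minus strand) was called in the edgeR test. Normalized counts were 29.6, 23.7, 25.7, 27.7 and 18.1 in the Dis3 cKO libraries, against 4.66, 2.83, 6.72, 5.75 and 0.919 in the control libraries. The lowest Dis3 cKO library stood well above the highest control library. The region rose (25 ± 4.42 in Dis3 cKO and 4.18 ± 2.32 in control; log2 fold change 2.54, SE 0.56, edgeR adjusted p = 1.10e-04), by 2.43 in libraries 1 to 3 and 2.75 in libraries 4 and 5. The snoRNA was abundant and did not pass the test, with a log2 fold change of -0.20 (edgeR adjusted p = 0.47). The region begins 1155 bases after the end of Tex2, whose gene count had a log2 fold change of 0.041 (edgeR adjusted p = 0.80). RefSeq places the start of an lncRNA, Gm36220 (chr11:106500915-106501211), inside the region on the opposite strand. Its span runs past the end of the region and over the start of Snord104. The counted strand runs upstream and antisense to the start of Gm36220.

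Start sites of other genes at the called regions are shown next. In the deposited coordinates the regions of Mir1945, Gm24574 and Mir8092 also lie just upstream of protein-coding genes. The counted strand there runs away from the coding gene's start, and where the counted RNA begins was not tested. Each window runs 250 bases before to 50 bases after the start site that the RefSeq promoter table gives for the named gene, on that gene's strand (GRCm38.p6), and capitals mark the bases that lie inside the counted region. These were the Gspt1 window at chr16:11254276-11254575 (minus strand) for Mir1945, which also holds the mature miR-1945 sequence, the Hnrnpa3 window at chr2:75659009-75659308 (plus) for Gm24574, the Zfp518a window at chr19:40894455-40894754 (plus) for Mir8092, and the Gm36220 window at chr11:106500665-106500964 (plus) for Snord104.
Gspt1: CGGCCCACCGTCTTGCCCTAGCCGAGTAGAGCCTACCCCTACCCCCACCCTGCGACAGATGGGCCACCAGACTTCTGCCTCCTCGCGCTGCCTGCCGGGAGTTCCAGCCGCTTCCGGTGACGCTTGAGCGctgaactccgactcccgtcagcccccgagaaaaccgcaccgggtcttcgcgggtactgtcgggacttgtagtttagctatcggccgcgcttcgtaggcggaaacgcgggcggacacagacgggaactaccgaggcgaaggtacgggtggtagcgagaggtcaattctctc
Hnrnpa3: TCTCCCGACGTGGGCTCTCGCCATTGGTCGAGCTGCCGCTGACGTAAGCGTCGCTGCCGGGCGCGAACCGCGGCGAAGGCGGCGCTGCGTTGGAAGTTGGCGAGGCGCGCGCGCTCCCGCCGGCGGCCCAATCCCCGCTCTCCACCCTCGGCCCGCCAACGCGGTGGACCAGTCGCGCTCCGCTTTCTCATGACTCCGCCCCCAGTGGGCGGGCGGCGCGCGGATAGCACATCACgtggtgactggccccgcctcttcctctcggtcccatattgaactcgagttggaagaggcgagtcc
Zfp518a: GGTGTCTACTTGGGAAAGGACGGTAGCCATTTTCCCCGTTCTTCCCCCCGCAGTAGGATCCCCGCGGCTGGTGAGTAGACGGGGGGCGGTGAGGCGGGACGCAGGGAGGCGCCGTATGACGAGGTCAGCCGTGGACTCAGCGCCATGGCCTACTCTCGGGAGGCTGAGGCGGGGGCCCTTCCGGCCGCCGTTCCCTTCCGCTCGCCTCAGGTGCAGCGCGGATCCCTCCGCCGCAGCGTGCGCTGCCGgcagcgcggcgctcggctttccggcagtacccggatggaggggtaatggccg
Gm36220: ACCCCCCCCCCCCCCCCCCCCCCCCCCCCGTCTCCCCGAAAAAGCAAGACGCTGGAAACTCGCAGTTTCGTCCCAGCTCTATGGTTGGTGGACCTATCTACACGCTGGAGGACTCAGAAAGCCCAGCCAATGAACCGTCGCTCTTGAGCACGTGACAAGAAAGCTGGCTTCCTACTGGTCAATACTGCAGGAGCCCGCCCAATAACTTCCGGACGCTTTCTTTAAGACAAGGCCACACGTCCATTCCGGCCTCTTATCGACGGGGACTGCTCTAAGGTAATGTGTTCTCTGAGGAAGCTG

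The windows held 32, 44, 35 and 16 CG dinucleotides in the order printed, against a median of 7 over 32851 promoter windows of the same length. The polyadenylation signal AATAAA was found in none of the 4 windows on either strand, and 11.3% of all promoter windows hold it on the gene strand and 10.5% on the opposite strand. The letters GGTAAG, of a 5′ splice site, were likewise absent from them, with 5.65% and 4.25% of all windows holding them. A TATAAA box was absent too, with shares of 8.32% and 6.95%, and its letters can overlap those of the first motif. Most promoter windows lack each motif, and the rest of the counted regions was not searched.

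The region upstream of Mir1945 (ENSMUSG00000088544; chr16:11254446-11257445, plus strand) was the most abundant called higher. It lies 121 bases upstream of the start of Gspt1, the gene of translation termination factor eRF3a, and Mir1945 sits between the region and that start on the same strand as Gspt1. Normalized counts were 228, 191, 161, 94.2 and 108 in the Dis3 cKO libraries, against 78.3, 66.9, 79.8, 36.4 and 36.8 in the control libraries. Libraries 4 and 5 were lower in both genotypes, and every Dis3 cKO library was above every control library. The region rose (156 ± 56.2 in Dis3 cKO and 59.6 ± 21.6 in control; log2 fold change 1.39, SE 0.25, edgeR adjusted p = 1.16e-06), and it was called under all 19 alternatives. Gspt1 gene counts had a log2 fold change of -0.19 (edgeR adjusted p = 0.147).

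Upstream of Gm24574 (ENSMUSG00000093242, miRNA; chr2:75656244-75659243, minus strand), 18 bases from the start that the deposited gene coordinates give for Hnrnpa3, an RNA-binding protein gene, normalized counts were 61.7, 107, 85, 85.3 and 63.4 in the Dis3 cKO libraries, against 32.6, 49.96, 28.6, 26.8 and 22.1 in the control libraries. The groups did not overlap, and the region rose (80.5 ± 18.7 in Dis3 cKO and 32 ± 10.7 in control; log2 fold change 1.33, SE 0.30, edgeR adjusted p = 1.96e-04). RefSeq annotates an lncRNA, Gm39859, over 2694 of its 3000 bases on the counted strand, and its span of Hnrnpa3 covers 139 bases of the region on the other strand. Upstream of Mir8092 (ENSMUSG00000099118; chr19:40891703-40894702, minus strand), 3 bases from the start of the zinc finger gene Zfp518a in the same coordinates, they were 45.7, 45.6, 33.5, 34.3 and 35.1 in the Dis3 cKO libraries, against 13, 13.2, 9.24, 12.5 and 11 in the control libraries. Here libraries within a genotype were close to each other, and the region rose (38.8 ± 6.21 in Dis3 cKO and 11.8 ± 1.67 in control; log2 fold change 1.71, SE 0.41, edgeR adjusted p = 4.79e-04). The RefSeq span of Zfp518a begins inside the region and covers 672 of its bases on the other strand, so that RNA counted there is antisense to that span. Neither coding neighbour passed the test (Hnrnpa3 -0.045, edgeR adjusted p = 0.788; Zfp518a -0.099, 0.399).

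Upstream of Mir7671 (chr11:53763655-53766654, plus strand), 3360 bases from the start of the interferon-responsive transcription factor gene Irf1, normalized counts were 28.4, 25.6, 13.4, 11.1 and 31.7 in the Dis3 cKO libraries, against 5.59, 11.3, 10.1, 0.958 and 2.76 in the control libraries. Dis3 cKO library 4 lay just below the highest control library, the only overlap. The region rose (log2 fold change 1.82, SE 0.54, edgeR adjusted p = 0.00887). Irf1 gene counts averaged 942 ± 145 in Dis3 cKO and 1192 ± 65 in control (log2 fold change -0.34, edgeR adjusted p = 0.052).

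The other called regions lie upstream of Gm-numbered genes, and their counts were low. Control means were 1.84 for Gm25008, 1.64 for Gm24291, 0.914 for Gm25589 and 1.23 for Gm23153, under the 3 counts required for a test. These regions thus passed the filter only through their Dis3 cKO libraries. Upstream of Gm25008 (snRNA; chr17:45617679-45620678) normalized counts were 11.1, 19.9, 21.2, 12.2 and 7.93 in the Dis3 cKO libraries, against 0, 1.89, 2.52, 4.79 and 0 in the control libraries (log2 fold change 2.90, SE 0.79, edgeR adjusted p = 0.00317). Upstream of Gm24291 (snRNA; chr8:113528672-113531671) they were 19.7, 12.3, 10.1, 8.86 and 12.5 in the Dis3 cKO libraries, against 1.86, 0, 2.52, 3.83 and 0 in the control libraries (log2 fold change 2.85, SE 0.86, edgeR adjusted p = 0.00917). Both sets were apart, and the Gm24291 region lies wholly within a RefSeq lncRNA, 4930571O06Rik, on the counted strand. Upstream of Gm25589 (snRNA; chr6:29113607-29116606) they were 18.5, 8.55, 4.47, 7.75 and 11.3 in the Dis3 cKO libraries, against 3.73, 0, 0.84, 0 and 0 in the control libraries (log2 fold change 3.30, SE 1.03, edgeR adjusted p = 0.0139). In that region 3 control libraries had no read, and without Dis3 cKO library 1 the adjusted p was 0.0921.

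Upstream of Gm22456 (snRNA; chr11:94916709-94919708) normalized counts were 27.2, 6.65, 20.1, 22.2 and 9.06 in the Dis3 cKO libraries, against 3.73, 7.54, 4.2, 3.83 and 6.43 in the control libraries (log2 fold change 1.70, SE 0.62, edgeR adjusted p = 0.0449). The groups overlapped, and the call was kept in 7 of 19 alternatives, with adjusted p values of 0.0807 to 0.175 when Dis3 cKO library 1, 3 or 4 or control library 1, 3 or 4 was left out. Upstream of Gm23153 (misc_RNA; chr1:190483158-190486157) they were 25.9, 0.949, 4.47, 9.97 and 12.5 in the Dis3 cKO libraries, against 0.932, 0, 3.36, 0.958 and 0.919 in the control libraries (log2 fold change 2.96, SE 0.96, edgeR adjusted p = 0.0192). Dis3 cKO library 1 held the most and library 2 was at the control level, and the edgeR adjusted p was 0.249 without library 1 and 0.0505 without library 5 of Dis3 cKO.

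**Figure D4:**
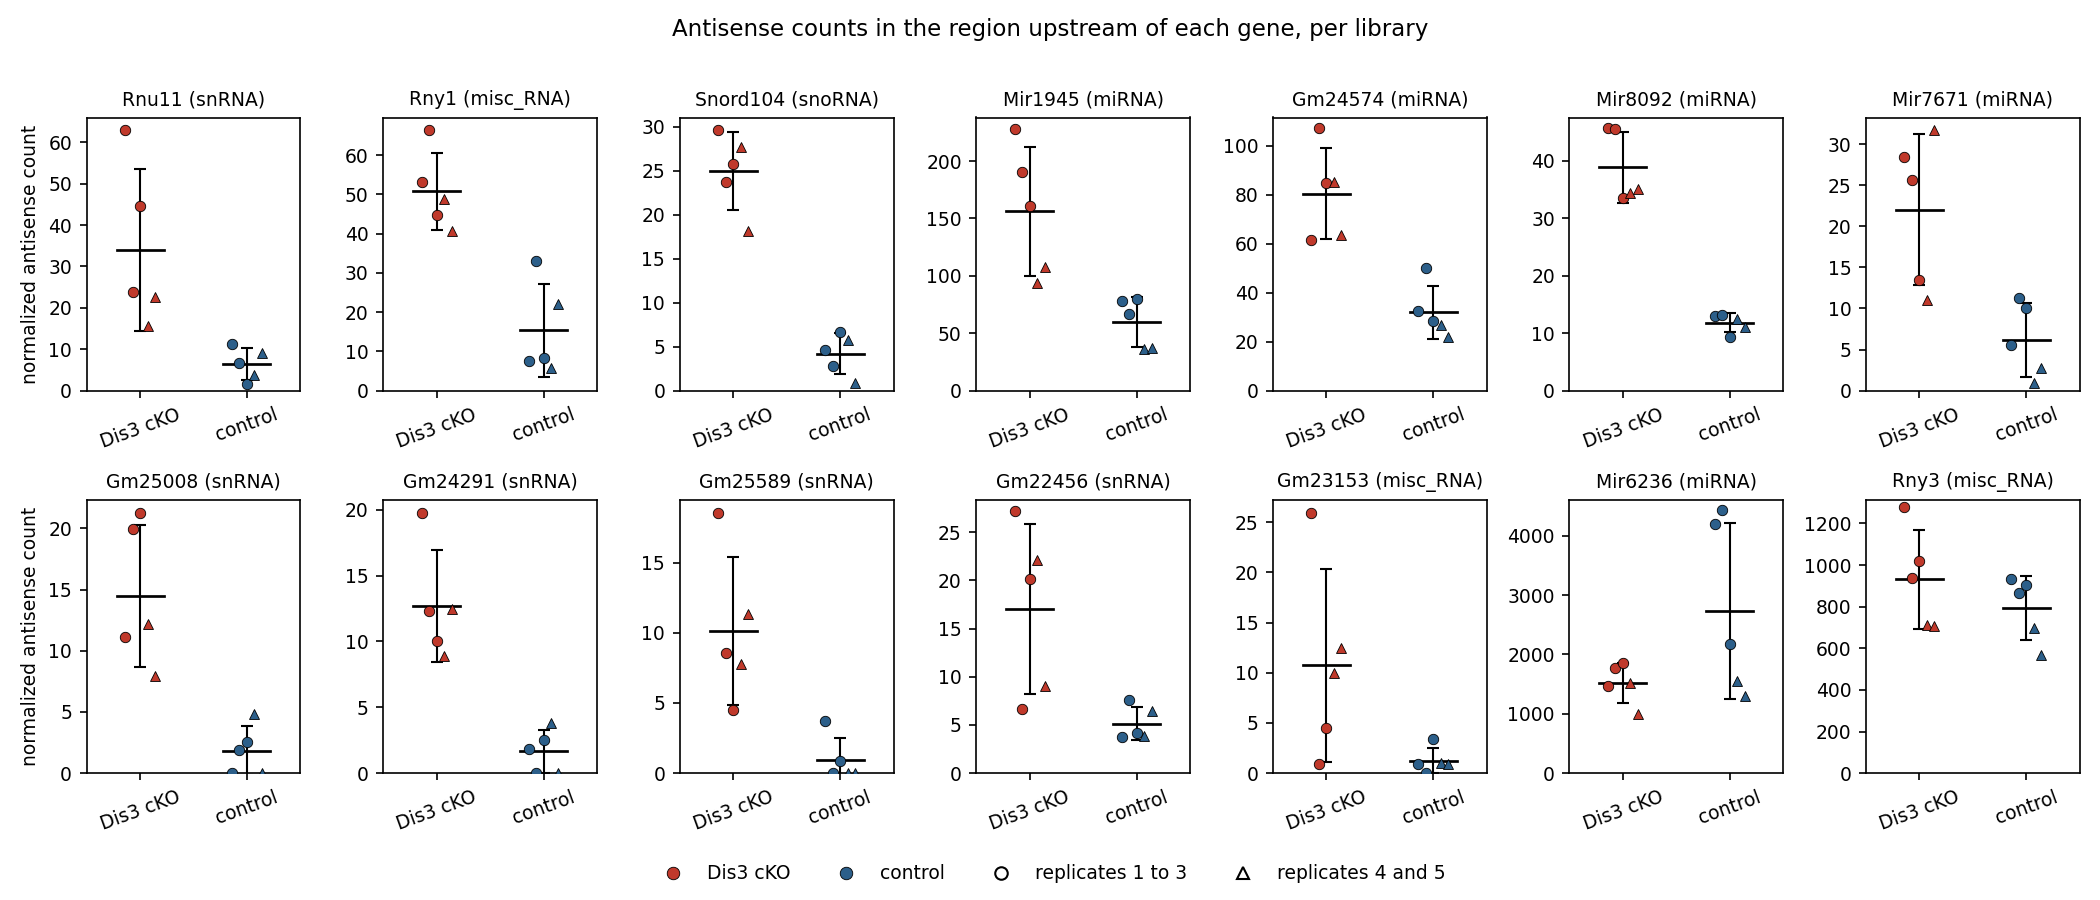
Normalized antisense count per library (y axis, each panel on its own scale) upstream of the 13 called genes and Rny3, Dis3 cKO left of control; circles are libraries 1 to 3, triangles libraries 4 and 5, lines the mean and bars the SD. The groups are apart in 9 of the 12 regions called higher and overlap in Mir7671, Gm22456, Gm23153, Mir6236 and Rny3.

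The lower call was the most abundant member, upstream of Mir6236 (ENSMUSG00000098973; chr9:110278287-110281286, minus strand). Normalized counts were 1468, 1774, 1850.4, 1511 and 999 in the Dis3 cKO libraries, against 4193, 4432, 2176, 1551 and 1301 in the control libraries. Control libraries 1 and 2 were the highest, while control libraries 4 and 5 lay within the Dis3 cKO range. The edgeR test called the region lower (1520.3 ± 335 in Dis3 cKO and 2731 ± 1481 in control; log2 fold change -0.84, SE 0.12, edgeR adjusted p = 1.74e-10), but the call was not kept with DESeq2 (adjusted p = 0.101), with library sizes from processed pseudogene regions (0.147) or with robust edgeR spread estimates (adjusted p = 0.279), and the exact permutation p was 0.127. Libraries 1 to 3 alone gave -1.08 and libraries 4 and 5 alone -0.18. All 3000 bases lie within a RefSeq lncRNA on the counted strand, Gm39429 (chr9:110266638-110282670). The Mir6236 gene count itself averaged 2004 ± 607 in Dis3 cKO and 2092 ± 1017 in control, a log2 fold change of -0.062 (edgeR adjusted p = 0.931).

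Many of the most abundant members were not called. Among the 5 most abundant of each class, 16 tested regions were not called, with log2 fold changes between -0.33 and 1.45. Gm22973, an snRNA gene, had a region at 38.4 ± 13.3 in Dis3 cKO and 34.9 ± 13.8 in control (log2 fold change 0.14, edgeR adjusted p = 0.913), while its own transcript rose, at 73.7 ± 27.6 in Dis3 cKO and 23 ± 9.32 in control (log2 fold change 1.68, SE 0.34, edgeR adjusted p = 0.00956). Upstream of Gm24166 normalized counts were 55.5, 48.4, 45.8, 15.5 and 21.5 in the Dis3 cKO libraries, against 23.3, 17, 16.8, 15.3 and 23 in the control libraries. Dis3 cKO libraries 1 to 3 were high there and libraries 4 and 5 at the control level (log2 fold change 0.97, SE 0.38, edgeR adjusted p = 0.0743). Mir1932, whose region is 2629 bases from the start of Rnf213 in the deposited coordinates and overlaps 522 bases of its RefSeq span on the other strand, had 59.5 ± 10.9 in Dis3 cKO and 45.3 ± 18.8 in control (log2 fold change 0.39, edgeR adjusted p = 0.554).

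Position relative to other genes was compared as a description. Over all tested regions 13.6% were called higher and 0.0486% lower, and of protein-coding regions 20.8% were called higher. A protein-coding gene on the strand of the small RNA gene started within 3000 bases of 25 members, of which 13 were tested and 3 called higher (23.1%), with a median log2 fold change of 0.79. The 3 called were the 3 members with such a start within 200 bases. The 338 tested members without such a start within 3000 bases had 9 called higher (2.66%), 1 lower and a median of 0.47. The span of a RefSeq gene lay over 51 members on the counted strand, with 21 tested, 2 called higher and 1 lower. No RefSeq gene lay over 871 members, and 8 of their 296 tested regions were called higher. Members with a given name numbered 135 (57 tested, 6 or 10.5% higher, 1 lower) and those with a Gm number or identifier only 865 (294 tested, 6 or 2.04% higher). In 155 members an annotated gene on the counted strand starts within 3000 bases of the region or ends less than 10000 bases before it, and 5 higher calls (7.94%) and 1 lower call of 63 tested fell there.

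The small RNA genes themselves were poorly captured and have a median length of 122 bases. Of the 1000 downstream genes, 491 had no count, 11 could be tested and 2 were higher in Dis3 cKO, Rnu11 and Gm22973 (edgeR). For most members the region therefore cannot be set beside the RNA downstream of it.

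Genes that act on these RNAs were read from the gene counts, where 4.42% of 20043 tested genes were higher and 3.48% lower. Of 21 genes of the nuclear exosome and of PROMPT decay, 1 rose and 4 fell. Zfc3h1, of the complex that carries polyadenylated nuclear RNA to the exosome, rose (2625 ± 147 in Dis3 cKO and 2094 ± 76.5 in control, log2 fold change 0.33), and besides Dis3 the exosome core subunit Exosc8 (2142 ± 90.8 in Dis3 cKO and 2682 ± 218 in control, log2 fold change -0.32), the exosome targeting subunit Rbm7 (2226 ± 108 in Dis3 cKO and 2865 ± 404 in control, log2 fold change -0.36) and the cofactor C1d (563 ± 72.3 in Dis3 cKO and 750.0 ± 91.1 in control, log2 fold change -0.41) fell. Of 29 genes for transcription and 3′ processing of small RNA genes, Pou2f1 (0.40) and Ice1 (0.21) rose and Snapc1 (-0.43), of the snRNA-activating complex, with the Integrator subunits Ints6 (-0.33) and Ints10 (-0.31) fell on the log2 scale. Of 9 miRNA processing genes, Ago2 rose (0.45) and Dgcr8, the partner of Drosha, fell (-0.28). Germ cell genes were lower in 3 of 7 cases (Sohlh1, Stra8 and Dazl), and among somatic markers 0 of 5 Sertoli, 1 of 5 Leydig (Cyp17a1, lower), 1 of 4 myoid (Myh11, higher) and 1 of 3 endothelial genes (Cdh5, higher) passed the edgeR test.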

How the data were processed

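RNA from both testes of each mouse was made into strand-preserving, rRNA-depleted libraries primed with random and poly(T) primers. The deposited values are raw counts per gene and per PROMPT region, which the authors made with featureCounts 1.6.4 (regions antisense to the gene) after cutadapt trimming and HISAT2 alignment. Coordinates are GRCm38 as in the file headers (GENCODE M 18). The processing notes name GRCm38.p5, while the study's methods name a later build. Default counting leaves out reads that align to several places, and small RNA genes have many copies, so that regions holding repeats can be undercounted.

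Biotypes and symbols came from GENCODE M 39 by gene ID, and 1421 of 30166 region IDs had no entry there and were left out of the classes. Library sizes were gene totals with TMM factors. Regions with a mean of at least 3 counts were tested with edgeR 4.0.16 (quasi-likelihood, R 4.3.3, Benjamini-Hochberg adjustment over all tested regions, threshold 0.05), with genotype as the only term. The study's own tool, DESeq2 1.42.0, was an alternative. Spread estimates were drawn strongly to the common trend (1563 prior against 8 residual degrees of freedom per region), so that a robust estimate was added after seeing the data. Class sums were compared as mean log2 normalized sums by two-sided exact permutation of libraries (numpy 2.4.6), adjusted over 8 sums and over 22 pairs. Libraries come from separate mice, and counts without molecular identifiers give counting error only. Tests were also run on simulated data with few changed regions, where 15% of edgeR calls were false. That share rests on few calls, since edgeR recovered 0%, 4.48% and 21.2% of regions changed by 0.5, 1 and 2 on the log2 scale. It cannot be carried over to the calls here. Named regions are all called members, the 5 most abundant of each class by count, of which those that matter are printed, and genes next to them. Members and lists were chosen with earlier results of these data known. Figures were drawn with matplotlib 3.10.9.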

Additional observations from a re-analysis of the deposited data

Results flagged for a closer look

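In each group of 5 libraries the gap of the highest or lowest library to its nearest neighbour was compared with the range of the group, over 54 groups of values used in the report; chance alone gives about 1 in 20. Upstream of Gm25589, control library 1 had a normalized count of 3.73, against at most 0.840 in the other control libraries. Upstream of Gm23153, control library 3 had 3.36, against at most 0.958 in the others. In both regions the Dis3 cKO mean stayed above these libraries. All PROMPT regions together took 0.899% of the gene counts in Dis3 cKO library 1, against at most 0.598% in the other Dis3 cKO libraries. The snRNA, snoRNA and miRNA sums without Mir6236 were also highest in that library.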

How the results depend on the processing

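Of the 12 members called higher and 1 lower, DESeq2 called 13 and 0, sharing 12 of the 13 regions, and the lower call was also lost with robust spread estimates (0), a setting chosen after seeing the data. Libraries 1 to 3 alone gave 9 higher and 2 lower, libraries 4 and 5 alone 2 and 0. Library sizes from processed pseudogene regions shifted the median of all regions by -0.29 and gave 8 higher and 0 lower. Sizes from the PROMPT table shifted it by -0.54 and gave 5 higher. By class, snRNA calls (5 higher) became 2 at a mean of at least 10 counts, 3 higher and 1 lower in libraries 1 to 3, 0 in libraries 4 and 5 and 2 with PROMPT table sizes. The snoRNA count (1) became 2 with DESeq2, without a filter, at a mean of at least 10 and in libraries 1 to 3, and 0 in libraries 4 and 5. The miRNA count (4 higher) became 2 in libraries 4 and 5, 2 with processed pseudogene and 1 with PROMPT table sizes, and its lower count 0 with DESeq2, robust spread, libraries 4 and 5 or processed pseudogene sizes. The misc_RNA count (2) became 1 in libraries 1 to 3 and with either other library size, and 0 in libraries 4 and 5. Leaving out each library gave 9 to 16 higher calls in all, 3 to 6 for snRNA, 1 to 3 for snoRNA, 1 to 3 for misc_RNA and 4 to 5 for miRNA. Calls over all regions are not given for these settings, so the changes cannot be read as particular to the members. Their cause was not tested.

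The replicate numbers did not pair the libraries across regions, where deviations of same-numbered libraries correlated between -0.0238 and 0.0391. Across genes these correlations were 0.0826 to 0.183, and other pairs within a set of numbers reached 0.160. With the replicate number as a block (replicate block), edgeR called 10 higher and 1 lower, 1 of them misc_RNA. For the class sums the blocked sign-flip test cannot go below an exact permutation p of 0.0625.

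Among single regions, sizes from the PROMPT table turned Gm22973 to -0.31, Gm25579 to -0.15, Mir1932 to -0.11 and Rny3 to -0.29, none of them called, and libraries 4 and 5 alone turned Gm24166 to -0.051. Leaving out each library gave -0.026 to 0.37 for Gm22973. For the sums, libraries 1 to 3 alone turned those of all to -0.29, snRNA to -0.048, snoRNA to -0.16, scaRNA to -0.28 and processed pseudogene to -0.11. Processed pseudogene sizes turned all to -0.20 and misc_RNA to -0.0011. The miRNA sum became 0.85 without its highest region, 0.79 without members near a gene (exact permutation adjusted p = 0.159) and 0.25 in libraries 4 and 5. The misc_RNA sum without its highest region was 1.0, and the protein-coding sum, left whole at 0.92, passed the adjustment in that setting. Without members near a gene the misc_RNA sum was 0.29 (SE 0.70, exact permutation adjusted p = 0.746). Differences between sums turned without the highest regions (-0.36 for snRNA minus miRNA, -0.51 for snRNA minus misc_RNA, -0.50 for snoRNA minus miRNA, -0.65 for snoRNA minus misc_RNA, 0.068 for miRNA minus scaRNA, 0.22 for misc_RNA minus scaRNA, 0.23 for all minus processed pseudogene, 0.55 for miRNA minus processed pseudogene, 0.70 for misc_RNA minus processed pseudogene and 0.077 for misc_RNA minus protein-coding), without members near a gene (-0.34 for snRNA minus miRNA, -0.43 for snoRNA minus miRNA, 0.50 for miRNA minus misc_RNA, 0.25 for miRNA minus scaRNA, 0.17 for all minus processed pseudogene and 0.49 for miRNA minus processed pseudogene), over members at a mean of at least 3 counts (0.21 for snRNA minus scaRNA and 0.058 for snoRNA minus scaRNA), in libraries 1 to 3 (-0.34 for snRNA minus misc_RNA, 0.23 for snRNA minus scaRNA, -0.45 for snoRNA minus misc_RNA, 0.12 for snoRNA minus scaRNA, 0.57 for misc_RNA minus scaRNA, -0.050 for snoRNA minus processed pseudogene, 0.40 for misc_RNA minus processed pseudogene and -0.17 for scaRNA minus processed pseudogene) and in libraries 4 and 5 (0.32 for snRNA minus protein-coding, 0.19 for snoRNA minus protein-coding and 1.26 for scaRNA minus protein-coding). Leaving out each library gave -0.075 to 0.25 for all, -0.45 to 0.089 for snRNA minus scaRNA, -0.080 to 0.29 for snoRNA minus misc_RNA, -0.18 to 0.12 for misc_RNA minus processed pseudogene and -0.60 to 0.10 for scaRNA minus protein-coding.

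Depth limits these results: the median member had under 3 normalized counts per library. In simulated data for this comparison edgeR recovered 21.2% of 66 regions changed by 2 on the log2 scale, and 58.8% of those with a mean of at least 10. The simulation changed far fewer regions than were called here, and in both directions. Its adjustment was therefore stricter, and these shares cannot be carried over to the members. Members whose genes are in the gene table were all 1000, so that this restriction changed nothing. The difference in the members' share of region counts, -1.62 percentage points, was -0.44 without the Mir6236 region and no longer past the threshold (exact permutation p = 0.0794).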
